A study of Mus musculus with 22 samples.

Results

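The receptors examined were 10 of the 31053 genes in the count matrices. They comprised the paired type 2 immunoglobulin-like receptors Pilra, Pilrb1 and Pilrb2, the paired immunoglobulin-like receptor Pirb, and 6 sialic acid-binding Siglecs, Siglece, Siglecf, Siglecg, Cd33, Cd22 and Siglec1. The genes were chosen by name with their levels by library kind and by leukocyte class already known, so those levels are a description with no test. All 10 had unique molecular identifiers (UMIs, 1 per captured transcript) in leukocyte barcodes, from 1393 for Siglec1 to 19685 for Pirb. Leukocyte barcodes held between 73.7% (Siglecg) and 90.3% (Siglecf) of each gene's UMIs over all barcodes.

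Inhibitory receptors of this kind carry an immunoreceptor tyrosine-based inhibitory motif (ITIM) in the cytoplasmic tail. Once phosphorylated by Src-family kinases such as Lyn, the motif recruits the phosphatases SHP-1 (Ptpn6), SHP-2 (Ptpn11) and SHIP-1 (Inpp5d), which dampen signals of activating receptors. PILR-alpha (Pilra) and PIR-B (Pirb, a receptor for MHC class I) are inhibitory in this sense, whereas PILR-beta (Pilrb1, Pilrb2) lacks an ITIM and signals through the adaptor DAP12 (Tyrobp). Most Siglecs examined are ITIM receptors for sialic acids on the cell's own glycans, but Siglec-1 (CD169) has no ITIM and acts in macrophage adhesion. Siglec-F is known from alveolar macrophages and eosinophils, and CD22 and Siglec-G from B cells, where they restrain signalling of the B cell receptor.

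Single-cell RNA libraries (10x Chromium 3′ chemistry) were made from mice without tumours that carried Prom1-CreERT2 and a Rosa26ZSG reporter. The recombinase is driven by the Prom1 promoter and activated by tamoxifen. The ZsGreen tag and, in Nalcn-deleted mice, loss of Nalcn (the sodium leak channel gene) are meant for Prom1-expressing cells and their descendants. The paper states that Prom1-CreERT2 does not recombine blood-forming cells of the bone marrow. Whether the leukocytes of these libraries had lost Nalcn was not measured. Blood cells sorted for ZsGreen (ntCZC, non-tumour circulating ZsGreen+ cells) came from 2 Nalcn wild-type (wt), 4 heterozygous (het, strain Prom1-CreERT2;Rosa26ZSG;Nalcn-het) and 4 null libraries (Prom1-CreERT2;Rosa26ZSG;Nalcn-null), and pooled organs (tissue: kidney, liver, lung and stomach, with epididymis in males and uterus in females) from 5 wt, 2 het and 2 null libraries. These mice were 551 to 654 days old and of mixed background, and 1 wt library of blood mononuclear cells (PBMC) came from a mouse of 120 days. Among ntCZC libraries, het replicate 3 and null replicates 1, 3 and 4 were from females. Another 2 tissue libraries, whose title and strain entries name different genotypes, entered no comparison of groups. Organ, sort and cell handling differed together between ntCZC and tissue and cannot be told apart. The labels name no animals, so p-values measure the spread between libraries.

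Leukocyte barcodes were those with at least 1 UMI of Ptprc (CD45, the pan-leukocyte antigen) and at least 200 genes, 1923 in ntCZC, 54573 in tissue and 606 in PBMC. Total leukocyte UMIs per ntCZC library ran from 222434 to 2325370, leaving out wt replicate 3, which held 8 leukocyte barcodes and was used in no level per library. Median UMIs per leukocyte barcode were 3163 to 9772 in those 9 ntCZC libraries and 958 to 4320 in tissue. Nalcn had 0 UMIs in all ntCZC and PBMC libraries and 0 to 18 in tissue, too few to check the genotype labels. Tissue null replicate 3, labelled female, held 1347 CPM (a gene's UMIs over all UMIs of the same barcodes, on the usual CPM scale) of Xist but also 31.2 CPM of Y-linked genes, so its results are also given without it. At most 62 leukocyte barcodes (0.45% of the smaller library) were shared by 2 libraries.

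The PILR genes lie side by side on the minus strand of chromosome 5 (GRCm38), Pilra at chr5:137821952-137836281, Pilrb1 at chr5:137852147-137858106 and Pilrb2 at chr5:137865827-137871815. Their promoters (RefSeq, GRCm38.p6, 250 bases before to 50 after the start) are printed because the levels of the 3 genes were in part alike across classes. The order of classes still differed between Pilra and the Pilrb genes (below). Capitals mark a stretch of 86 bases that was identical in all 3 and in no other of 32851 promoters.

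Pilra, chr5:137836229-137836528, minus strand: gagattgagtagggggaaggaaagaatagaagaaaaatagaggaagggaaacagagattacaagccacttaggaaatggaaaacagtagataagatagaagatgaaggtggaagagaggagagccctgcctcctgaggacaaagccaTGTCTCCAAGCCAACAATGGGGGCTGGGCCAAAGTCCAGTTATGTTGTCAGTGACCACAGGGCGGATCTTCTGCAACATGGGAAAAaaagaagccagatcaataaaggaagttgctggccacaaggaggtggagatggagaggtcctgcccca
Pilrb1, chr5:137858000-137858299, minus strand: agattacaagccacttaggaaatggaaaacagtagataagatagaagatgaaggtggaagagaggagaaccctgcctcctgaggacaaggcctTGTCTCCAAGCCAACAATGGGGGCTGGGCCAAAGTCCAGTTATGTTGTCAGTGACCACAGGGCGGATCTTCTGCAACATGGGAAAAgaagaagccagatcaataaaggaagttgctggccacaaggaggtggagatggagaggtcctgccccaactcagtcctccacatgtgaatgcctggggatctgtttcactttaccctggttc
Pilrb2, chr5:137871709-137872008, minus strand: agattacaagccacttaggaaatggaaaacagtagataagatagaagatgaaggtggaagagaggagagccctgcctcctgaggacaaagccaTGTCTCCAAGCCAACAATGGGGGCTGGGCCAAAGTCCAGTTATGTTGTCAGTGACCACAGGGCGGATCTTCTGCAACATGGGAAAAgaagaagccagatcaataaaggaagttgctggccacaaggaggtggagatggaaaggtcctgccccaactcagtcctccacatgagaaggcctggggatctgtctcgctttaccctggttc

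The Pilrb1 and Pilrb2 promoters were identical at 292 of 300 bases (97.3%). Shifted by 54 bases, the Pilra promoter matched Pilrb1 at 242 of 246 bases (98.4%) and Pilrb2 at 244 of 246 (99.2%). Near the transcript ends, which 3′ libraries read, Pilrb1 and Pilrb2 shared 65 of 510 windows of 91 bases (12.7%) with each other, and reads of such windows cannot be assigned to 1 of the 2 genes. Pilra shared 0 of 510 windows with any gene, and Pirb shared 3 (0.588%), with Lrrn4cl.

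Pirb (chr7:3711409-3720391) and the Siglec genes Siglecf (chr7:43351341-43359531), Siglecg (chr7:43408204-43418358), Cd33 (chr7:43524216-43544428), Siglece (chr7:43651070-43660161) and Cd22 (chr7:30865402-30880342) lie on chromosome 7, and Siglec1 lies at chr2:131069220-131086765. The promoters of Pirb, the broadest myeloid gene of the set, and Cd22, the B cell gene, are shown with 1 motif each in capitals. The Cd22 window surrounds a RefSeq start that lies inside the gene coordinates above, downstream of the gene's outermost start on the minus strand. In Pirb this was GAGGAAGT, the core site of the myeloid factor PU.1, and in Cd22 it was TCCC and GGGA with any 2 bases between them, the site of the B cell factor EBF1.

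Pirb, chr7:3720333-3720632, minus strand: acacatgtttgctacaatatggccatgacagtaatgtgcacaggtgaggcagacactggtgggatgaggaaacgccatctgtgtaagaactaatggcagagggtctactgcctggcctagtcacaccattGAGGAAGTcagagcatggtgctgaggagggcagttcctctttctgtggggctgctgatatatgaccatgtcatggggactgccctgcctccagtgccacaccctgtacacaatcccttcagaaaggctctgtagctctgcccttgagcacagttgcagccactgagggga
Cd22, chr7:30878979-30879278, minus strand: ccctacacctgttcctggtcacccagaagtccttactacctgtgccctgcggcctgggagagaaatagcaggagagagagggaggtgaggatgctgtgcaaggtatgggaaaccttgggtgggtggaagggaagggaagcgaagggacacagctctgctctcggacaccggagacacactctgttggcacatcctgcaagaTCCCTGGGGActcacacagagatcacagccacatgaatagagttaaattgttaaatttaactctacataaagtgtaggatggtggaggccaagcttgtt

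On either strand, the PU.1 letters were present in 1052 of 32851 promoters (3.2%) and, of the 10 genes, in Pirb alone. The EBF1 letters were present in 297 (0.904%) and, of the 10 genes, in Cd22 alone. A match says only that these letters stand in this window.

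Over all leukocyte barcodes, Pilrb1, Pilrb2 and Pirb were at higher levels in ntCZC than in tissue, and Siglecf was lower. Pilrb1 was between 12.5 and 117 CPM in the 9 ntCZC libraries (median 67.7) and between 4.69 and 9.55 CPM in the 9 tissue libraries (median 8.01). Pilrb2 ranged from 26.9 to 179.8 CPM in ntCZC (median 120.0) and from 7.66 to 19.6 CPM in tissue (median 14.9). Both activating PILR genes were thus higher in every ntCZC library than in any tissue library. Pirb averaged 211 ± 78.7 CPM in ntCZC libraries against 78.7 ± 12.3 CPM in tissue libraries (SD, n = 9 each), and its ranges (128 to 379 and 50.9 to 90.7 CPM) did not overlap. Pilra was at 145 ± 56.1 CPM (SD, n = 9) against 49.1 ± 14.4 CPM (SD, n = 9), with overlap through 1 library, ntCZC het replicate 3 (32.1 CPM). Without that library the Pilra ranges did not overlap.

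Of the 10 receptors, 3 were higher without overlap, beside a background of 6.1% of 10963 genes, and 1 was lower, beside 13.7%. Since the genes were chosen with this contrast known, nothing is read from these counts. The median log2 ratio of ntCZC over tissue was 0.62 for the receptors and 0.05 for all genes counted. With the 2 tissue libraries without a group included, only Pilrb2 and Siglecf kept ranges without overlap. Within these sums, fewer cells of a type and less RNA per cell cannot be told apart.

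**Figure D1:**
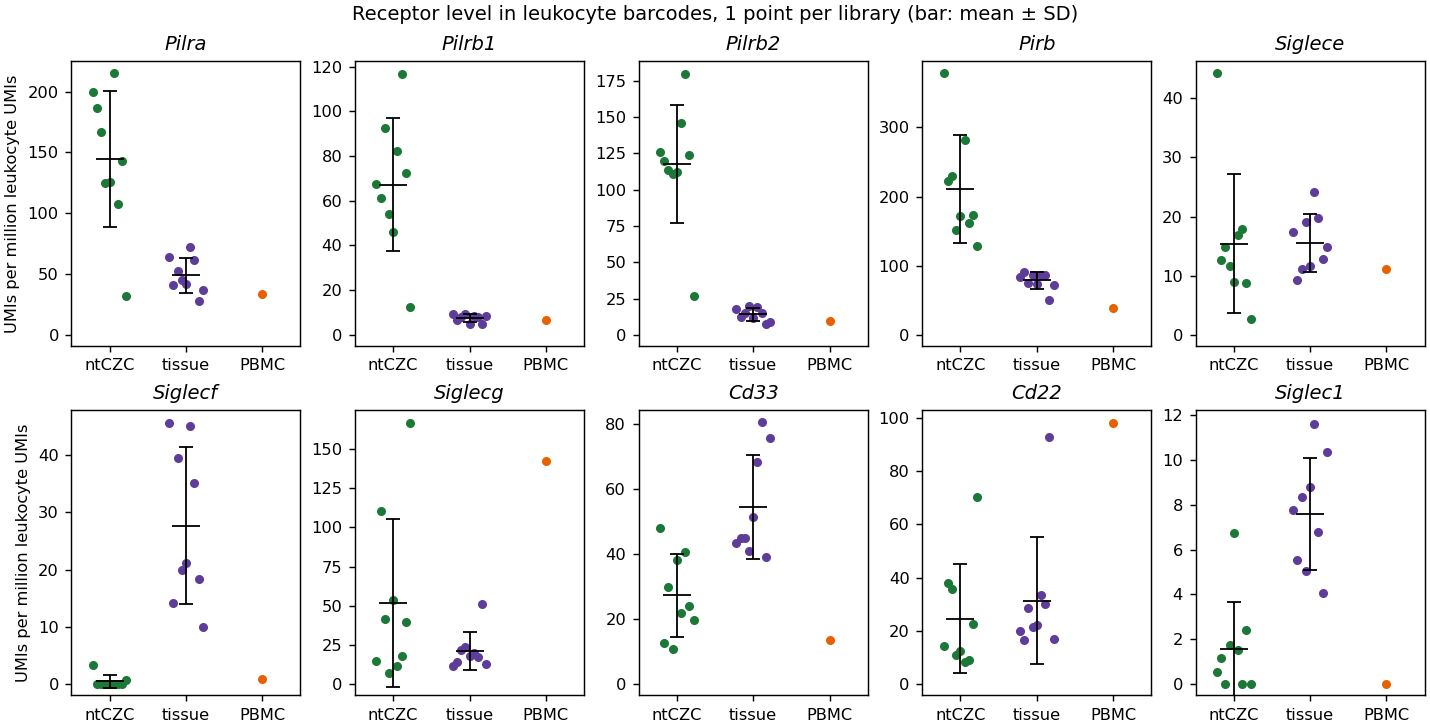
Level of each receptor in leukocyte barcodes (y axis, CPM of leukocyte UMIs) in 9 ntCZC, 9 tissue and 1 PBMC library; points are libraries and bars mean ± SD. Pilrb1, Pilrb2 and Pirb sit higher in every ntCZC library than in any tissue library, with 1 ntCZC library (het replicate 3) lowest for all 4 of Pilra, Pilrb1, Pilrb2 and Pirb.

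Siglecf was the reverse, with ntCZC libraries at 0.437 ± 1.09 CPM and tissue libraries at 27.6 ± 13.7 CPM (SD, n = 9 each). Only 7 Siglecf UMIs were found in 1923 ntCZC leukocyte barcodes, of which 5 were in neutrophil barcodes. Of the 7, 6 were in wt replicate 1 (3.28 CPM) and 1 in het replicate 3 (0.656 CPM), and the other 7 libraries were at 0. Without wt replicate 1 the ntCZC mean was 0.0819 CPM. Cd33 averaged 27.3 ± 12.8 CPM in ntCZC libraries against 54.3 ± 16.0 CPM in tissue libraries, with overlapping ranges. Siglec1 (1.56 ± 2.12 against 7.59 ± 2.49 CPM, SD, n = 9 each, and 0.920 CPM in ntCZC without null replicate 1), Siglece (15.4 ± 11.8 against 15.5 ± 4.87 CPM), Siglecg (51.5 ± 53.6 against 21.1 ± 12.0 CPM) and Cd22 (24.5 ± 20.5 against 31.3 ± 23.8 CPM) overlapped as well. In PBMC, a single library, the B cell genes Siglecg (143 CPM, exact Poisson 95% interval 122 to 166) and Cd22 (98.2 CPM) were the highest of the 10.

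The classes behind these sums were set by markers. A barcode joined a class when at least 2 of its 5 markers were detected, and more than of any other class. In ntCZC, 948 of 1923 leukocyte barcodes were of the nonclassical monocyte class (markers Ace, Treml4, Adgre4, Cd300e and Ear2), 212 classical monocytes, 189 B cells, 121 T cells, 106 neutrophils (97 of them from wt replicate 1), 59 C1q macrophages and 56 peritoneal macrophages. Tissue leukocyte barcodes comprised 7252 B cells, 6877 T cells, 5318 alveolar macrophages, 4511 C1q macrophages, 3623 neutrophils, 2267 classical and 1269 nonclassical monocytes, and 15940 in no class. The tissue leukocyte barcodes also included 3188 of the endothelial class, 999 of the epithelial and 378 of the fibroblast class. Receptor levels there were low but not 0, for example a pooled 23.6 CPM for Pilra in the endothelial class. Tissue levels over all leukocyte barcodes include these barcodes, and no ntCZC barcode was of these classes.

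**Figure D2:**
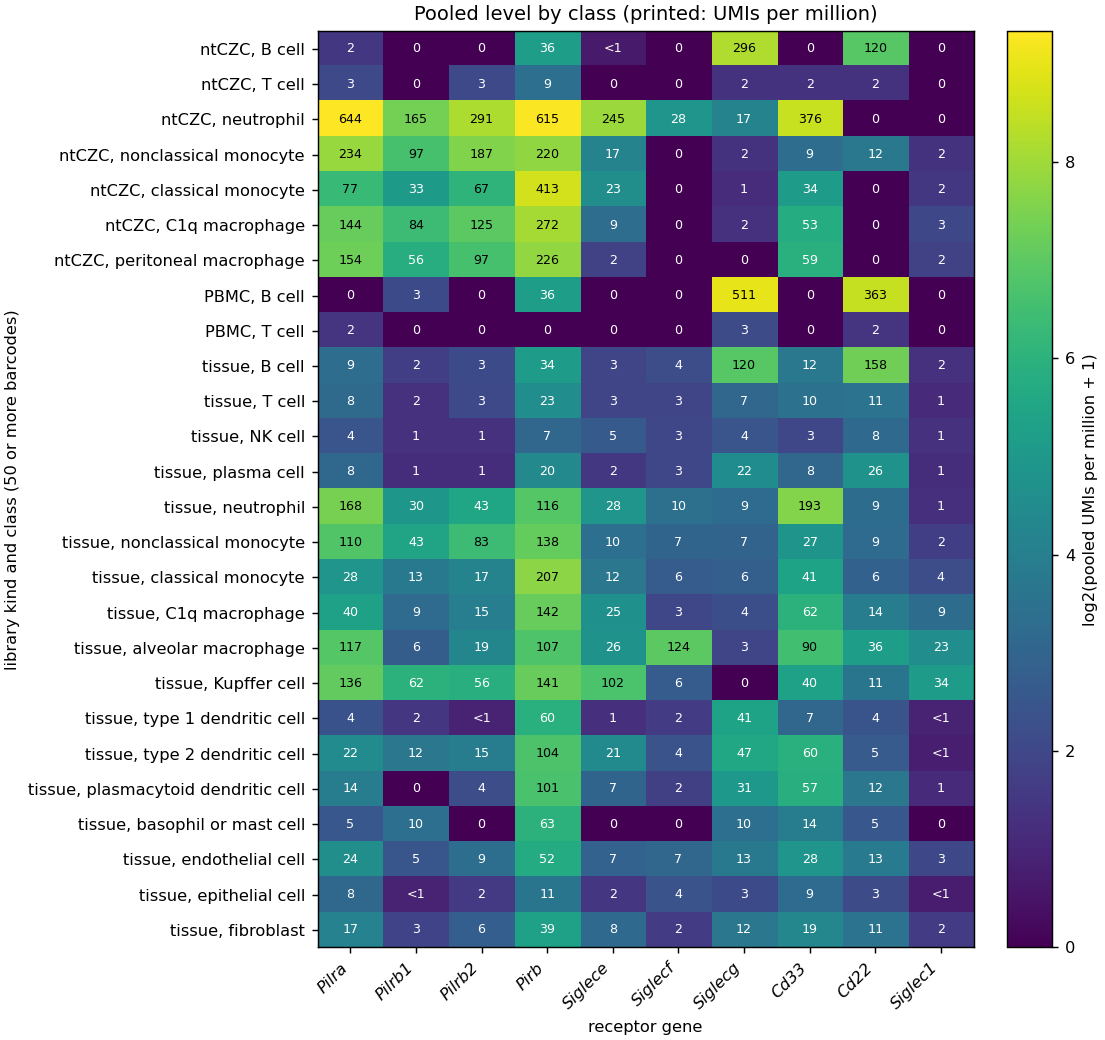
Pooled level of each receptor (columns) in each class and library kind with at least 50 barcodes (rows); colour is log2(CPM + 1) and the printed number is CPM. The highest PILR and Pirb levels are in ntCZC neutrophils, followed by monocyte, macrophage and tissue neutrophil rows in an order that differs by gene, the highest Siglecf level is in tissue alveolar macrophages, and the highest Siglecg and Cd22 levels are in the 3 B cell rows.

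Classes were ordered over those with at least 2 libraries of 20 barcodes, which leaves out tissue Kupffer cells (1 such library, 70 barcodes in all) and the peritoneal macrophage and basophil or mast cell classes (0 such libraries, 20 and 64 barcodes). The pooled levels of Kupffer cells were 136 CPM of Pilra (86.9 to 202), 62.1 of Pilrb1 (31.0 to 111), 56.5 of Pilrb2 (27.1 to 104), 141 of Pirb (91.4 to 208) and 102 of Siglece (60.3 to 161). In tissue, Pilra was then highest in neutrophils (179 ± 76.2 CPM, SD, n = 9), alveolar macrophages (112 ± 17.5 CPM, n = 9) and nonclassical monocytes (103 ± 19.97 CPM, n = 8), which overlapped one another. The next class, C1q macrophages (56.5 ± 15.8 CPM, n = 9), did not overlap with nonclassical monocytes, but its highest library (76.5 CPM) lay above the lowest of neutrophils (63.7 CPM) and of alveolar macrophages (76.0 CPM). The activating genes had a different order. Nonclassical monocytes led these classes for Pilrb1 (35.6 ± 18.7 CPM) and Pilrb2 (84.3 ± 32.5 CPM), with neutrophils next (31.6 ± 18.3 and 53.0 ± 24.0 CPM) and overlapping. Alveolar macrophages had 5.38 CPM of Pilrb1 (2.75 to 7.25 over 9 libraries) and 15.4 ± 7.27 CPM of Pilrb2. T cells, which gave the background level, had pooled levels of 8.36, 1.52 and 3.20 CPM for Pilra, Pilrb1 and Pilrb2.

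The inhibitory gene's share of all PILR UMIs therefore differed by class. Pilra made up 82.9% of PILR UMIs in tissue alveolar macrophages (exact 95% interval 81.8 to 83.9%, 4734 UMIs, 80.5 to 95.2% over 9 libraries) and 46.7% in tissue nonclassical monocytes (43.4 to 49.999%, 906 UMIs, 40.2 to 50.5% over 7 libraries with at least 20 PILR UMIs). The library ranges of these 2 classes did not overlap. Tissue neutrophils (69.7%, 67.7 to 71.5%) and C1q macrophages (62.7%, 60.3 to 65.1%) lay between them. In ntCZC the share was 45.1% in nonclassical monocytes (43.1 to 47.2%), with an interval that overlapped that of tissue. In 2 other classes the ntCZC interval lay below that of tissue. The share was 40.7% in ntCZC C1q macrophages (34.3 to 47.3%), where the 4 libraries with at least 20 PILR UMIs (25.9 to 52.0%) lay below the 9 tissue libraries (54.6 to 69.6%). Only 1 ntCZC library, het replicate 3, held at least 20 barcodes of this class, with 36.8 CPM of Pilra against a pooled 143.5 CPM. The share was 58.5% in ntCZC neutrophils (51.3 to 65.6%), which came mostly from 1 library. Pilrb1 made up 34.2% of Pilrb1 and Pilrb2 UMIs in nonclassical monocytes of both kinds and 23.6% (20.7 to 26.6%) in alveolar macrophages. Intervals cover counting error only.

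**Figure D3:**
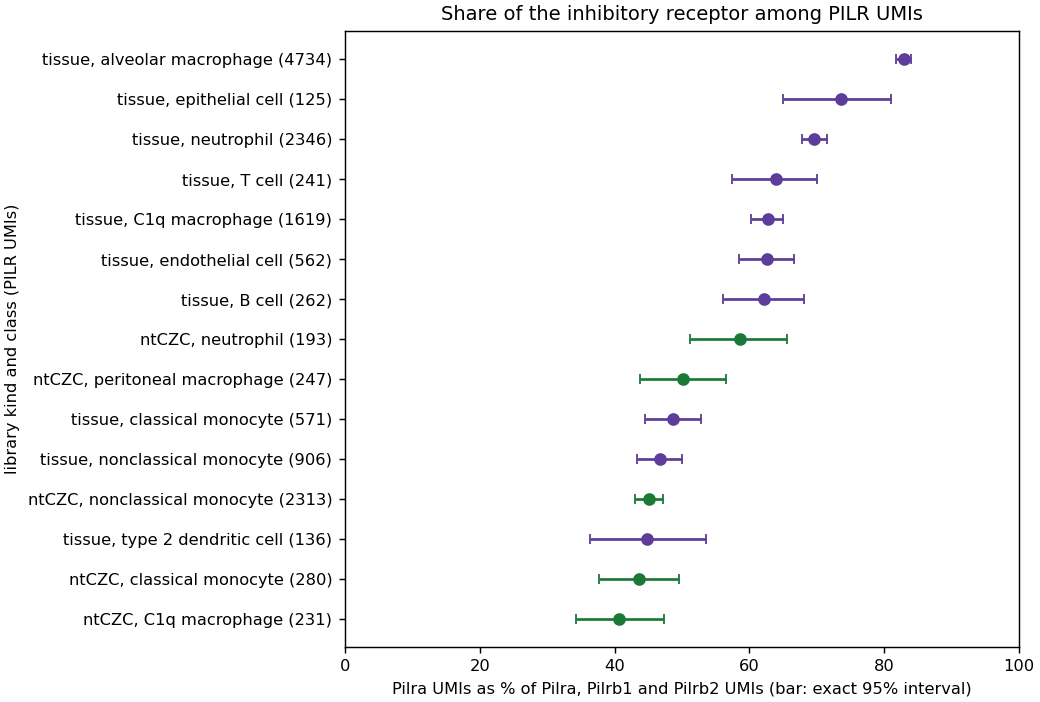
Pilra UMIs as a percentage of Pilra, Pilrb1 and Pilrb2 UMIs (x axis) by class and library kind with at least 100 PILR UMIs (number in parentheses); bars are exact 95% intervals. Alveolar macrophages stand highest at 82.9%, and monocytes of both kinds lie between 43.6 and 48.7%.

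In tissue, Pirb was highest in classical monocytes (222 ± 43.5 CPM, SD, n = 9), followed by C1q macrophages (149 ± 22.2), nonclassical monocytes (130 ± 23.5), neutrophils (126 ± 33.7), type 2 dendritic cells (112 ± 21.8) and alveolar macrophages (102 ± 20.8), each overlapping the next. In ntCZC classical monocytes it was at 467, 313 and 427 CPM in the 3 libraries with at least 20 such barcodes (402 ± 79.9, SD, n = 3). It was also present in B cells of each kind, at pooled levels of 36.2 CPM in ntCZC, 34.3 in tissue and 36.0 in PBMC (exact 95% intervals 27.5 to 46.7, 31.6 to 37.1 and 18.0 to 64.4). T cells had 22.7 CPM in tissue and 9.49 in ntCZC, and 0 UMIs in 248 PBMC barcodes, which allows up to 5.00 CPM. In each kind the pooled B cell interval lay above the upper limit for T cells (20.6 CPM in ntCZC and 24.97 CPM in tissue), but in tissue the library ranges of the classes overlapped (17.5 to 61.5 CPM in B cells and 7.49 to 40.7 CPM in T cells). In ntCZC the 2 B cell libraries were at 38.3 and 42.2 CPM and the 2 T cell libraries at 0 and 46.3 CPM (6 UMIs in wt replicate 1), so these overlapped too.

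Neutrophil barcodes had the highest pooled level of Pilra, Pilrb1, Pilrb2, Pirb, Siglece and Cd33 among the 26 class profiles of ntCZC, tissue and PBMC with at least 50 barcodes, all in ntCZC. These ntCZC neutrophils came almost wholly from wt replicate 1, so the values describe that library. Pilra was at 644 CPM (531 to 774), Pirb at 615 (505 to 743), Cd33 at 376 (291 to 478) and Siglece at 245 (177 to 330). The 31 PBMC neutrophil barcodes gave 736 CPM of Pilra (456 to 1125) and 386 CPM of Cd33 (192 to 690), against 168 (160 to 177) and 193 (185 to 202) in pooled tissue neutrophils. The 5 neutrophil markers summed to 13551 CPM in the ntCZC library and 1945 to 6724 CPM in tissue neutrophils, and the classical monocyte markers to 13.1 CPM against a tissue median of 308 CPM, and their part in these levels was not tested. Cd33, a granulocyte receptor in mice, was highest in neutrophils within tissue as well (233 ± 58.3 CPM, SD, n = 9), without overlap with alveolar macrophages (104 ± 29.1 CPM). The lowest tissue neutrophil library was at 158 CPM and the highest alveolar macrophage library at 146 CPM.

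Siglecf was highest in tissue alveolar macrophages. There it was at 87.8 to 141 CPM (122 ± 19.1, SD, n = 9), and 45.4% of barcodes were positive (12.0% after thinning each barcode to 1000 UMIs), against 0.596% of tissue T cells (0.235% thinned). The next class with at least 2 libraries, neutrophils, was at 10.9 ± 11.4 CPM and did not overlap. In ntCZC nonclassical monocytes 0 Siglecf UMIs were found in 948 barcodes, which allows up to 0.673 CPM. Siglec1 was low throughout, at 22.4 ± 7.98 CPM in alveolar macrophages and 10.2 ± 9.42 CPM in C1q macrophages (n = 9 each, overlapping), and at 33.9 CPM in Kupffer cells, from 6 UMIs in 70 barcodes (12.4 to 73.8). Leaving out Kupffer cells, Siglece was led by C1q macrophages (42.0 ± 22.9 CPM), neutrophils (35.8 ± 17.5) and alveolar macrophages (27.0 ± 8.37), which overlapped.

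Siglecg and Cd22 were led by B cells in each kind. In tissue B cells, Cd22 ranged from 74.2 to 249.9 CPM (142 ± 54.9, SD, n = 9), above every library of the next class with at least 2 libraries, alveolar macrophages (36.3 ± 5.49 CPM). A Cd22 UMI was found in 18.7% of alveolar macrophage barcodes (3.59% thinned) and 2.63% of tissue T cells (1.29% thinned), with median depths of 4595 and 1878 UMIs, but the library ranges overlapped (23.8 to 42.8 CPM in alveolar macrophages and 1.42 to 31.0 CPM in T cells, whose highest library was wt replicate 4). Siglecg was at 130 ± 34.1 CPM in tissue B cells, and dendritic cells of type 2 (55.3 ± 28.5 CPM, n = 8) and type 1 (43.0 ± 17.4 CPM, n = 8) followed. The libraries of B cells (77.2 to 169 CPM) overlapped those of type 2 (29.1 to 116 CPM) but not those of type 1 (23.1 to 76.9 CPM). The pooled Siglecg level of B cells was 511 CPM in PBMC (434 to 597), 296 in ntCZC (270.4 to 324) and 119.8 in tissue (115 to 125), and the share of positive B cells after thinning was 31.8%, 24.6% and 12.8%. For Cd22 the thinned shares were 32.5%, 17.1% and 16.9%. In T cells, which should lack both genes, the thinned shares were 0.461%, 0% and 0.654% for Siglecg and 0%, 0% and 1.29% for Cd22. The 2 ntCZC libraries with at least 20 B cells held 241 and 317 CPM of Siglecg, and the 9 tissue libraries at most 169 CPM, but the male tissue library without a group held 247 CPM. The 5 B cell markers also differed between the kinds, summing to 5952 to 6777 CPM in ntCZC and 2012 to 3496 CPM in tissue B cells, and the classical monocyte markers had medians of 5.07 and 327 CPM there. The part of these markers in the Siglecg levels was not tested. The PBMC mouse was much younger than the others, and age and kind cannot be told apart.

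Across the 26 class profiles, the genes whose log2(CPM + 1) was most like each receptor were found by Pearson's r over 15034 genes. The profiles share libraries and, in part, cells' depth, so r is a description. Pilra was most like Pilrb2 (0.961), and Pilrb1 was also most like Pilrb2 (0.897). Next for Pilra and Pilrb2 were 2 uncharacterized genes, C130050O18Rik (0.960 and 0.9502) and 6430548M08Rik (0.929 and 0.954). Pirb was most like Spi1, which encodes PU.1 (0.968), then the ITAM receptor gene Nfam1 (0.943). Pax5 (0.889) and Cd79a (0.886) were among the genes most like Cd22 and are B cell markers of the gate itself. Siglecg was nearest to Fcrla (0.881), Cd33 to Tnfaip2 (0.929), Siglece to the ITIM lectin gene Clec4a2 (0.895), Siglec1 to Tfec (0.904) and Siglecf to Tob1 (0.871).

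The nonclassical monocyte class was the largest in ntCZC and was also present in tissue. In its 7 ntCZC libraries with at least 20 barcodes, Pilra was at 252.6 CPM in the wt library, 359, 179.5 and 170.2 CPM in het replicates 1, 2 and 4, and 226.7, 329 and 182.0 CPM in null replicates 1, 2 and 4. The 8 tissue libraries ran from 79.2 to 135 CPM with a median of 100.4. The 7 ntCZC libraries stood above these 8 tissue libraries for Pilra, but the male tissue library without a group, at 233 CPM, lay within the ntCZC range, and with it the ranges overlapped. Pilrb1 (102 ± 25.2 against 35.6 ± 18.7 CPM, SD, n = 7 and 8) and Pilrb2 (189 ± 29.8 against 84.3 ± 32.5 CPM) also did not overlap, although the highest tissue library for Pilrb2, het replicate 2 at 148 CPM, came close to the lowest ntCZC library at 151 CPM. The log2 ratios were 1.23 for Pilra, 1.496 for Pilrb1 and 1.16 for Pilrb2. Pirb was at 238 ± 73.3 against 130 ± 23.5 CPM, a log2 ratio of 0.87, and overlapped (lowest ntCZC library 166, highest tissue library 170 CPM).

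Cd33 went the other way in the same barcodes. It was between 3.86 and 14.4 CPM in ntCZC (median 6.19) and between 15.3 and 56.8 CPM in tissue (median 37.4), a log2 ratio of -2.06 with no overlap. At 3 or more markers the ratio was -1.84 and the ranges overlapped. Siglece (18.5 ± 7.70 against 9.92 ± 6.27 CPM), Siglecg (2.43 ± 2.64 against 5.13 ± 4.65 CPM) and Cd22 (11.8 ± 5.79 against 9.67 ± 9.64 CPM) overlapped. Of 9 receptors at 5 CPM or more in either kind, 3 were higher without overlap, beside a background of 6.74% of 9879 genes, and 1 was lower, beside 2.93%. As above, nothing is read from counts that the choice of genes fixes. The median log2 ratio was 0.83 for these receptors and 0.25 for all genes counted.

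**Figure D4:**
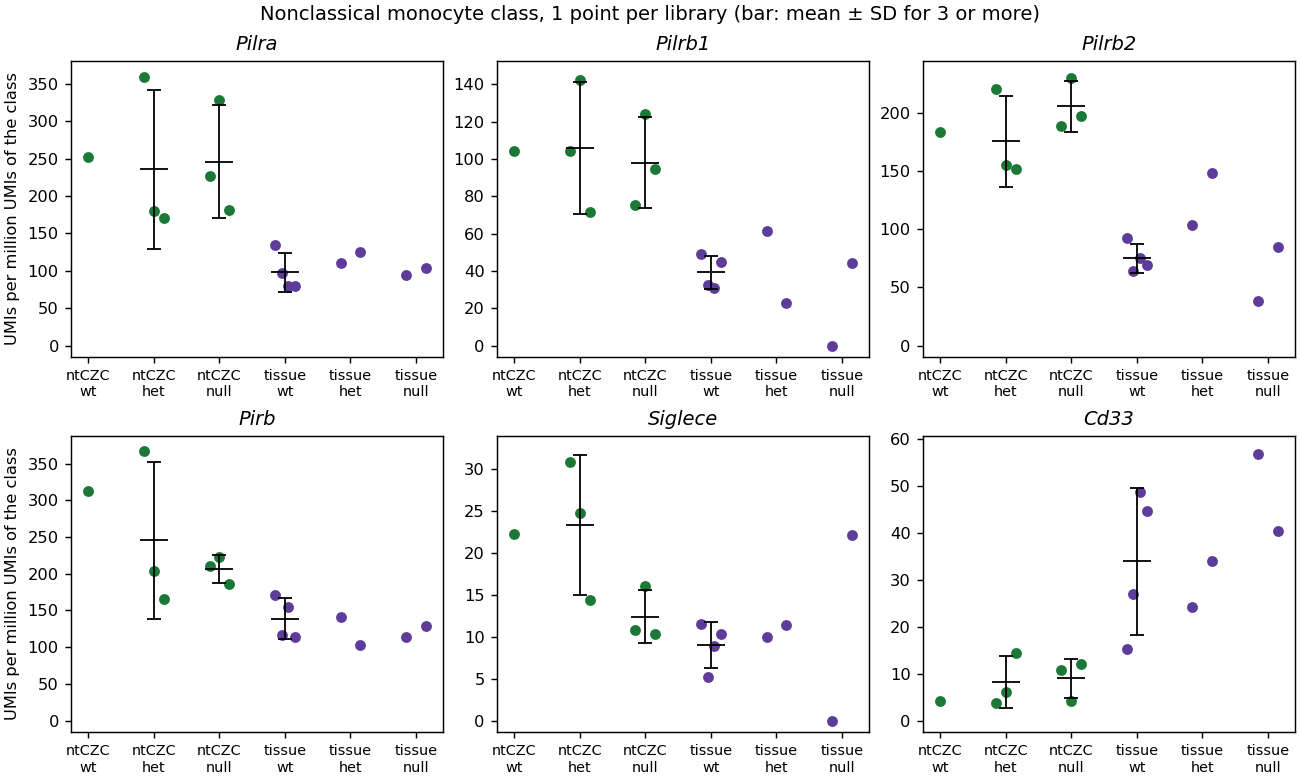
Level of 6 receptors in the nonclassical monocyte class (y axis, CPM of the UMIs of the class) by library kind and genotype (x axis); points are libraries and bars mean ± SD for groups of 3 or more. Pilra, Pilrb1 and Pilrb2 are higher and Cd33 is lower in all 7 ntCZC libraries than in the 8 tissue libraries, and het and null ntCZC libraries overlap for Pilra, Pilrb1, Pilrb2 and Pirb.

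Depth differed between the kinds in this class, with medians of 4372 UMIs per barcode in ntCZC and 2350 in tissue. After thinning to 1000 UMIs, 19.6% of ntCZC and 11.3% of tissue barcodes held a Pilra UMI (56.5% and 25.7% before), 9.26% and 5.27% a Pilrb1 UMI (33.2% and 11.9%), 17.7% and 10.2% a Pilrb2 UMI (52.8% and 20.4%), and 18.1% and 12.6% a Pirb UMI (54.3% and 30.3%). For Cd33 the thinned shares were 1.18% and 2.55% (3.90% and 7.01%). Thinning left out 19 ntCZC and 92 tissue barcodes. The thinned differences ran in the same direction as the CPM for each of the 5 genes. T cells of the same kinds held a Pilra UMI in 0.826% and 1.86% of barcodes before thinning, at median depths of 4769 and 1878 UMIs, and a Cd33 UMI in 0.826% and 2.30%.

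Markers of other cells moved with the kind as well. The class's own 5 markers summed to 2067 to 3011 CPM in ntCZC and 1447 to 2423 CPM in tissue, with all 5 detected in both. The 5 classical monocyte markers summed to 76.6 to 320 CPM in ntCZC and 205 to 1278 CPM in tissue, those of alveolar macrophages to 0 to 1.07 and 11.4 to 303 CPM, and those of neutrophils to 0 to 43.0 and 18.9 to 182 CPM. T cell, epithelial and fibroblast markers summed to at most 3.27, 0.655 and 0 CPM in ntCZC and at most 133, 70.8 and 341 CPM in tissue. Of the 5 B cell markers, 4 were detected in ntCZC, and their sums (10.8 to 27.0 CPM) overlapped those of tissue (18.2 to 141 CPM). Type 1 dendritic cell markers had the higher median in ntCZC (75.6 against 59.9 CPM). Barcodes with markers of another lineage made up 0.105% of the class in ntCZC and 7.88% in tissue. Without them Pilra, Pilrb1 and Cd33 still did not overlap and Pilrb2 did, as also at no more than 20% mitochondrial UMIs. The part of these markers in the difference was otherwise not tested.

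Partner genes of the pathway were compared between the kinds in this class as well. The lists were chosen with earlier results known, so nothing particular to them is read from their counts, which stand beside 6.74% of all genes higher without overlap in this class. All 3 adaptors of activating receptors were higher without overlap, with Tyrobp (DAP12, the PILR-beta adaptor) at 3718 ± 260 CPM in ntCZC and 2072 ± 304 in tissue, Fcer1g at 3699 ± 585 and 1427 ± 282, and Hcst at 128 ± 13.6 and 66.5 ± 16.2. Of 7 phosphatases and kinases of ITIM signalling, 6 were higher without overlap (Ptpn6 482 ± 123 against 169 ± 43.7 CPM, Inpp5d 242 ± 63.5 against 78.1 ± 40.3, Lyn 693 ± 73.4 against 336 ± 86.8, and Ptpn11 and Csk among them), and Fgr overlapped. Of 13 other ITIM receptors counted, 2 were higher (Cd300a and Lair1), of 5 PIR-A and LILR relatives 1 (Lilra5), and of 16 genes of sialic acid synthesis and transfer 1 (St3gal4, 141 ± 26.8 against 53.3 ± 29.0 CPM). None of these lists had a gene lower without overlap. The median log2 ratios were 0.93, 1.05, 0.70, 0.01 and 0.07 in the order given, beside 0.25 over all genes, so those of the PIR-A and LILR relatives and of the sialic acid genes lay below it. No PILR ligand gene or other Siglec reached 5 CPM in the class.

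Within ntCZC nonclassical monocytes, barcodes with a Pilra UMI held a Pilrb2 UMI more often than those without (59.0% of 536 against 44.9% of the rest), but they were also deeper (median 4684 against 3775 UMIs). For Pilra and Pirb the shares were 56.5% and 51.5%, and for Cd33-positive and Cd33-negative barcodes the share with Pilra was 56.8% and 56.5%. At least 1 of the 10 receptors was detected in 91.1% of these barcodes and in 63.7% of the tissue class. These shares were not thinned, and the median depths were 4372 and 2350 UMIs, so depth enters the difference.

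Genotype was not used to choose the genes, so it was tested. The ntCZC tests compare libraries by genotype label, and loss of Nalcn within these leukocytes was not measured. In ntCZC leukocyte barcodes, null against het, with sex in the model, no gene of 9994 passed an adjusted p of 0.05 (edgeR quasi-likelihood test, 0% called, 973 genes at an unadjusted p below 0.05, 89 called by DESeq2). Of 8 receptors tested 0 passed and 5 had an unadjusted p below 0.05. Cd22 was at 38.1, 35.8, 70.1 and 10.8 CPM in het replicates 1 to 4 and at 12.3, 8.16, 8.99 and 22.5 CPM in null replicates 1 to 4, with overlap through het replicate 4. Its log2 change was -1.98 (SE 0.46, edgeR adjusted p = 0.261). Siglecg was at 81.6 ± 71.1 CPM in het and 30.7 ± 19.4 CPM in null (SD, n = 4 each), a log2 change of -2.15 (SE 0.74, edgeR adjusted p = 0.389). Both genes are B cell receptors. The share of B cells among leukocyte barcodes was 50.4% in het replicate 3 (66 of 131) and 19.8% and 27.3% in het replicates 1 and 2. It was 1.74% in het replicate 4 and 4.96 to 19.3% in null. Cd22 was at 14.2 CPM (26 UMIs) in wt replicate 1 (2.07% B cells). In null replicate 3 (12.9% B cells) it was at 8.99 CPM, from only 2 UMIs. In het replicate 3, 103 of 107 Cd22 UMIs were in the B cell class. In het replicate 4, 20 of 25 were in the nonclassical monocyte class, as were 14 of 26 in wt replicate 1. The part of the B cell share in the difference was not tested.

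**Figure D5:**
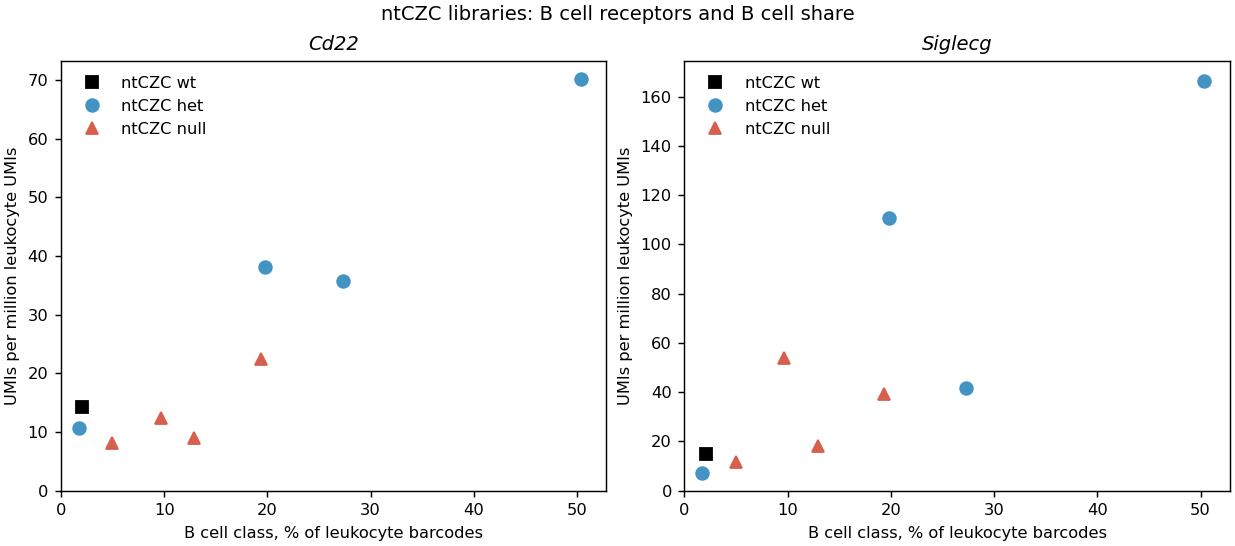
Cd22 and Siglecg level in leukocyte barcodes (y axis, CPM) against the B cell class as a percentage of leukocyte barcodes (x axis) in 9 ntCZC libraries; symbols mark genotype. The library with 50.4% B cells (het replicate 3) has the highest level of both genes, and the 2 libraries with the fewest B cells (wt replicate 1 and het replicate 4) have low levels of both. For Cd22, wt replicate 1 is at 14.2 CPM (26 UMIs). Null replicates 1, 2 and 3, which hold larger shares of B cells, are at 12.3, 8.16 and 8.99 CPM (11, 16 and 2 UMIs).

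The PILR genes stood higher in null in the same fit, with log2 changes of 1.10 for Pilra (SE 0.36, edgeR adjusted p = 0.363), 1.22 for Pilrb1 (SE 0.51, adjusted p = 0.474) and 1.21 for Pilrb2 (SE 0.40, adjusted p = 0.382). These rested on het replicate 3, the only female het library, in which nonclassical monocytes made up 4.58% of leukocyte barcodes against 25.8 to 69.1% in the others. Without it, the changes were 0.43, 0.29 and 0.33 and 0 receptors had an unadjusted p below 0.05, and without the sex term they were 0.28, 0.58 and 0.63. Without het replicate 4, Cd22 (adjusted p = 0.013) and Siglecg (adjusted p = 0.0292) passed, and without null replicate 2, Pilrb2 did (log2 change 2.18, edgeR adjusted p = 0.0455).

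Within the ntCZC nonclassical monocyte class, 0 of 7391 genes were called (0%, 218 at an unadjusted p below 0.05 and 0 by DESeq2), and 0 of 6 receptors. Pilra was at 236 ± 106 CPM in het and 246 ± 75.5 CPM in null (SD, n = 3 each), a sex-adjusted log2 change of 0.48 (SE 0.35, edgeR adjusted p = 1). Pilrb2 was at 175 ± 38.8 and 205 ± 21.6 CPM (log2 change 0.39, SE 0.30, adjusted p = 1), and Pirb at 246 ± 107 and 206 ± 18.9 CPM (log2 change -0.13, SE 0.36, adjusted p = 1). All het libraries of this test and 1 null library were male, so the adjusted values rest on null replicate 2.

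In tissue, libraries with Nalcn deleted (het and null together) were compared with wt within 3 classes. Tissue cells were not sorted for ZsGreen, and the paper states that Prom1-CreERT2 does not recombine blood-forming cells of the bone marrow. How many barcodes of these classes had lost Nalcn is not known. The tests therefore compare libraries by genotype label and cannot measure loss of Nalcn within these leukocytes. In nonclassical monocytes 0 of 3562 genes were called (0%, 182 at an unadjusted p below 0.05, 0 by DESeq2) and 0 of 5 receptors, with log2 changes of 0.11 for Pilra (SE 0.22), 0.36 for Pilrb2 (SE 0.27) and -0.15 for Pirb (SE 0.23). In C1q macrophages 0 of 8255 genes were called (0%, 317 at an unadjusted p below 0.05, 3 by DESeq2) and 0 of 7 receptors. There Pirb averaged 134 ± 10.9 CPM over wt libraries (SD, n = 5), and the het libraries held 173 and 177 CPM and the null libraries 140 and 179 CPM, a log2 change of 0.18 (SE 0.18, edgeR adjusted p = 1.00). Siglece averaged 48.3 ± 26.9 CPM over wt libraries, with 21.2 and 45.2 CPM for het and 18.1 and 51.9 CPM for null (log2 change -0.41, SE 0.47). In B cells 1 of 8166 genes was called (0.0122%, 399 at an unadjusted p below 0.05, 2 by DESeq2), Fabp1, a liver fatty acid-binding protein gene (log2 change 2.96, SE 0.29, edgeR adjusted p = 0.00184), named because it was the only call. Without the sex term 0 genes were called, and without mixed-lineage barcodes 0 as well. None of 5 receptors was called there. Siglecg averaged 112 ± 34.4 CPM over wt libraries (SD, n = 5), with 168 and 169 CPM for het and 131 and 136 CPM for null (log2 change 0.43, SE 0.23, edgeR adjusted p = 1.00), and Cd22 at 142 ± 67.5, 120 and 140, and 101 and 203 CPM (log2 change 0.08, SE 0.28). Without tissue null replicate 3, 0 receptors were called in any of the 3 classes, and in nonclassical monocytes 28 genes were called. Of the pathway genes tested, 0 were called in any of the 5 tests. Each test held 3 adaptors, 7 ITIM phosphatases and kinases, 9 to 16 other ITIM receptors, 3 to 5 PIR-A and LILR relatives and 6 to 16 genes of sialic acid synthesis and transfer. PILR ligands had 1 gene tested in 2 of the tests, and no other Siglec was tested. In ntCZC leukocyte barcodes 2, 3, 7, 2 and 3 genes of the 5 lists first named had an unadjusted p below 0.05, beside 973 of all 9994 genes. Without het replicate 3 that number over all genes fell to 187 of 9254.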

How the data were processed

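Libraries were 10x Chromium 3′ single-cell RNA libraries. The authors aligned reads to mm10 with Cell Ranger (3.0.2 per the file headers, 2.1.1 in the submitters' processing notes, which also name Seurat) and deposited UMI counts per gene and barcode, with no normalization. Leukocyte UMIs per library are given in the text, and their number limits the precision. Barcodes needed at least 200 genes and 1 Ptprc UMI. Classes were gated on 5 markers each for 19 classes (at least 2 detected, ties left out). No doublet caller was run, and an alternative left out barcodes with markers of another lineage. Counts were summed per library and class (at least 20 barcodes) and given as CPM. Shares of positive barcodes were also given after thinning to 1000 UMIs (seeded). For shares, 95% intervals were exact (Clopper-Pearson), for levels they were exact Poisson bounds, and a count of 0 was taken to allow up to 3 counts.

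The 25 replicate pairs differed by at least 4.75 per degree of freedom in a chi-square over genes, and each library was counted as 1 sample. That chi-square cannot tell whether 2 libraries came from the same mouse, because libraries of the same mouse can differ in their mix of cells. Genotypes were tested with edgeR 4.0.16 (quasi-likelihood, TMM, filterByExpr, sex as covariate, Benjamini-Hochberg over all genes tested, threshold 0.05) in R 4.3.3, with DESeq2 1.42.0 as an alternative, and scripts were tested on simulated data. SE is the log2 change over the square root of F. Library kinds were described by whether their library values overlapped, over genes with a mean of at least 5 CPM in either kind. Named genes were the 10 receptors, the 3 genes most like each, called genes of the lists, and genes a result turned on. The receptors, the 7 lists (62 genes, 8 not in the matrices) and the tests were chosen with earlier results of these data known. Promoters came from RefSeq tables of GRCm38.p6 and gene coordinates from a GENCODE annotation of GRCm38, the build of mm10. Results for a few genes that this rule would name are not reported here.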

Additional observations from a re-analysis of the deposited data

Results flagged for a closer look

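Dixon's test at 95% was applied to the levels of the 10 receptors in groups of 4 to 10 libraries, 59 groups in all, and 8 stood apart, where chance marks about 1 in 20 groups. In ntCZC leukocyte barcodes, het replicate 3 stood apart for Pilrb2 (26.9 CPM, next het library 111 CPM) and for Siglecf (0.656 CPM from 1 UMI, the other het libraries at 0). This library had the highest share of B cells (50.4%) and the lowest of nonclassical monocytes (4.58%), and the part of these shares was not tested. Null replicate 2 stood apart for Pirb (282 CPM, next 174 CPM).

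In tissue leukocyte barcodes, wt replicate 4 stood apart for Siglecg (51.2 CPM, next wt library 17.4 CPM) and Cd22 (92.9 CPM, next 29.9 CPM), both B cell receptors. In tissue C1q macrophages, wt replicate 2 was low for Pilra (27.9 CPM, next 64.2 CPM), and wt replicate 5 was high for Siglec1 (34.5 CPM, next 8.51 CPM). The same library was high for Siglec1 in B cells (9.11 CPM, next 1.97 CPM).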

How the results depend on the processing

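Of 201 alternative values of the counts behind the comparisons, 173 stayed within 1.5 times the main count, and 28 did not. In ntCZC leukocyte barcodes, 0 called genes became 89 with DESeq2, 52 without the filter on low counts and 0 to 86 when 1 library was left out (86 without het replicate 4, 50 without null replicate 2). Called receptors there became 1 without the filter (Cd22, adjusted p = 0.0467; DESeq2 gave it no adjusted p) and 0 to 2 when 1 library was left out. In ntCZC nonclassical monocytes, 0 became 16 without the filter and 0 to 3 when 1 library was left out (3 without het replicate 1, 2 without het replicate 4). The fit without null replicate 2 could not be made there. In tissue nonclassical monocytes, 0 became 59 without the filter, 66 with the replicate block and 0 to 28 when 1 library was left out (28 without null replicate 3, 27 without wt replicate 4). In C1q macrophages, 0 became 3 with DESeq2, 23 without the filter and 1 with the replicate block. In B cells, 1 became 3 at no more than 20% mitochondrial UMIs, 2 with DESeq2, 216 without the filter, 0 without the sex term, 2 for null alone, 25 with the replicate block, 0 without mixed-lineage barcodes and 1 to 3 when 1 library was left out (2 without wt replicate 1, 2 without wt replicate 2, 3 without wt replicate 3). The receptors without overlap in leukocyte barcodes fell from 4 to 2 with the 2 tissue libraries without a group. Left-out libraries gave 4 to 5 there and in nonclassical monocytes, where Pirb joined without ntCZC het replicate 4 or tissue wt replicate 1. Cd33 was lost at 3 or more markers, Pilrb2 at no more than 20% mitochondrial UMIs and without mixed-lineage barcodes, and Pilra with the libraries without a group.

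Of 479 alternative log2 changes by genotype over every receptor tested, 30 changed sign, of which 0 passed the threshold, and 4 others passed it. By test, 0 of 112 changed sign in ntCZC leukocyte barcodes, 4 of 76 in ntCZC nonclassical monocytes, and 7 of 81, 12 of 125 and 7 of 85 in tissue nonclassical monocytes, C1q macrophages and B cells. The values below are for the 19 changes followed singly, of whose 292 alternatives 11 changed sign. In ntCZC nonclassical monocytes, Pirb became 0.16 with the replicate block and -0.41 to 0.30 when 1 library was left out (0.30 without het replicate 1). In tissue nonclassical monocytes, Pilra became -0.067 with the replicate block, Pilrb2 -0.13 for null alone and Pirb 0.20 at 3 or more markers. In C1q macrophages Siglece became 0.13 with the replicate block, where 5 of 7 receptors changed sign, so that 7 of 7 were higher with Nalcn deleted (median log2 change 0.15) in place of 2 of 7 (-0.18). In B cells Cd22 became -0.0868 at no more than 20% mitochondrial UMIs, -0.00208 without the sex term, -0.0484 for null alone, and -0.0822 to 0.30 when 1 library was left out (-0.0822 without wt replicate 2, -0.0216 without wt replicate 5). The causes were not tested. Same-numbered libraries correlated between -0.191 and 0.28 in their deviations, so replicate numbers were not taken to pair them, and the block called no receptor.

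Limits: n counts libraries, ntCZC libraries held few barcodes, and levels under the T cell background were not read as expression.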

Other observations

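The 2 tissue libraries whose labels name different genotypes are given as values. In leukocyte barcodes, the male library held 78.9 CPM of Pilra, 14.2 of Pilrb1, 26.3 of Pilrb2 and 138 of Pirb, and the female library 80.4, 8.76, 18.6 and 97.3 CPM. In the nonclassical monocyte class, Pilra was at 233 CPM in the male library (34 UMIs in 66 barcodes) and 106 CPM in the female library (26 UMIs in 164 barcodes). Cd33 was at 34.2 and 41.0 CPM there. In B cells, Siglecg was at 247 and 174 CPM and Cd22 at 197 and 182 CPM.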
